A study of Mus musculus with 6 samples.

Results

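The major urinary protein (MUP) genes examined in the liver were Mup1, Mup2, Mup3, Mup4, Mup5, Mup7, Mup20 and Mup21, that is 8 of the 24346 gene symbols of the deposited table, chosen by their names. The table has 12 further rows named Mup and a number, which are used only beside the 8. Samples were livers of male C57BL/6 mice (C57BL/6J in the study's methods) that were 8 weeks old when a choline-deficient, amino acid-defined, high-fat diet (CDAHFD, which produces steatohepatitis) was started. After 6 weeks on it every mouse received 1 dose of adeno-associated virus serotype 8 and returned to normal chow, and livers were taken 2 weeks later. The virus drives mCherry and a lipid droplet-targeting sequence of perilipin 1 (LDTS) from the liver-specific thyroxine-binding globulin promoter, so the cargo is made mainly in hepatocytes. In the 3 lipophagy livers the LDTS is fused to an engineered LC3-interacting region derived from optineurin (LDTS-eLIR), which recruits autophagosomes to the droplets. In the 3 control livers that region is mutated (LDTS-LIR mut). Both groups therefore share the diet, the virus and the LDTS, which is itself mildly lipogenic, and no liver without virus is compared. The labels number the livers 1 to 3 in each group and name no animals, so p-values measure the spread between these samples.

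MUPs are small lipocalins, barrel-shaped carriers that the mouse liver, above all that of males, secretes into the blood. They pass into the urine, where they hold volatile pheromones and release them slowly. Their transcription in hepatocytes is known to depend on pulses of growth hormone acting through STAT5, and on androgens, thyroid hormone and glucocorticoids. The comparison asks whether transcripts of these male-typical secreted proteins differ between livers with and without induced lipophagy.

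All 8 genes lie in 1 cluster on chromosome 4, on the minus strand, in build GRCm38 (mm10) with GENCODE vM21 models. They are at chr4:60498012-60501960 (Mup1), chr4:60135932-60154289 (Mup2), chr4:62083476-62087342 (Mup3), chr4:59956804-59960710 (Mup4), chr4:61831319-61835233 (Mup5), chr4:60066469-60070475 (Mup7), chr4:62050234-62054158 (Mup20) and chr4:62147932-62150863 (Mup21). Each transcript used here has 7 exons, except that of Mup21 with 6. Their coding sequences are between 537 and 555 bases long, and 406 of 555 aligned columns are the same in all 8. The likeness of the sequences sets how well reads can be told apart, so the same 60 bases of coding exon are shown for the 6 members with an appreciable level, 5′ to 3′ in the sense of the gene. Capitals mark the 26 positions that differ anywhere among the 8 members.
Mup1: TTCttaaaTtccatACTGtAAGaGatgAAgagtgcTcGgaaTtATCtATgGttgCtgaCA
Mup2: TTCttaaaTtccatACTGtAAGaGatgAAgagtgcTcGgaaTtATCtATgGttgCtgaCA
Mup7: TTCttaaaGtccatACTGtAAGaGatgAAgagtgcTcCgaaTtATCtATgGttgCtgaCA
Mup20: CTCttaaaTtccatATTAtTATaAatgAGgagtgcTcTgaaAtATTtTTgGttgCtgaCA
Mup3: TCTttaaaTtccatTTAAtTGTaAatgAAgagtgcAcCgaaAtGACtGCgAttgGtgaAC
Mup21: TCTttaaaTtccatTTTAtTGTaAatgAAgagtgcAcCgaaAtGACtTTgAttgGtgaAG

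In this stretch, which is coding bases 212 to 271 of Mup1, Mup2 had 0 differences from Mup1, Mup7 had 2, Mup20 had 11, Mup3 had 21 and Mup21 had 19. Over the whole coding sequence Mup1 and Mup2 were 99.4% identical, with 3 differing positions in 543. Mup1 and Mup7 were 98.9% identical. Mup3 and Mup21 were 94.8% identical to each other, and Mup3 and Mup7 were the least alike pair at 82.2%. Libraries were read in 100-base paired ends, so the transcripts were also compared in windows of 100 bases. Of the windows of Mup2, 97.3% occurred unchanged in another Mup gene. For Mup1 and Mup7 this share, which counts pseudogenes too, was 87.2% and 87.1%. For Mup20 it was 38.8%, all of it shared with the pseudogene Mup-ps19 and none with a coding Mup gene. For Mup21, Mup3 and Mup5 it was 4.50%, 2.94% and 1.33%, and for Mup4 it was 0. The levels of Mup1, Mup2 and Mup7 are therefore uncertain one by one, because most of their reads could have come from a neighbour, whereas those of Mup3 and Mup21 rest mainly on sequence of their own. The level of Mup20 could include reads of Mup-ps19.

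Promoter sequence was found in the RefSeq table (GRCm38.p6) for 5 of the 8 members. Those of Mup2 and Mup3 are shown as examples of a member that varied widely between livers and one that did not. Each holds the 250 bases before the RefSeq start on the minus strand, at chr4:60139857-60140106 and chr4:62087318-62087567, with the TATA motif TATATAA in capitals. RefSeq and GENCODE place these starts differently. The Mup2 window lies inside the GENCODE interval given above, and the Mup3 window overlaps the first bases of its own.
Mup2: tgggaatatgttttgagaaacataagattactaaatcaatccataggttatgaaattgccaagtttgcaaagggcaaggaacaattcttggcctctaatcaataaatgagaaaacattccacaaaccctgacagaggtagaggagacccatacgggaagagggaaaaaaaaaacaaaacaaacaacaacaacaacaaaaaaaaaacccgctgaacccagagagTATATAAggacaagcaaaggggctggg
Mup3: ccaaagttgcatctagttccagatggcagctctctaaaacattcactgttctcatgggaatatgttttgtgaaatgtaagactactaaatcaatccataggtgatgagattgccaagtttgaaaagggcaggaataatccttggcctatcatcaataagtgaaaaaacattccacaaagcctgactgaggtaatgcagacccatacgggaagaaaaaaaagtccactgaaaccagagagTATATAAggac

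The letters TATATAA, searched on both strands, were in 4 of the 5 windows (Mup2, Mup3, Mup4 and Mup21), against 3.04% of 32817 promoter windows of that length. The spacing TTCNNNGAA, the usual core of STAT5 sites, reads the same on both strands. It was in 0 of the 5 windows and in 7.01% of all promoter windows. The same motif with 1 more base between TTC and GAA was in 2 of the 5 windows (Mup4 and Mup7) and in 5.85% of all. A match describes letters in a window and does not show binding, and the lack of one says only that these letters are not in this window.

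Values are FPKM, fragments per kilobase of transcript, scaled to all mapped fragments of the liver. Low values come in steps of 1 fragment, from which 23.2 to 34.5 M fragments per liver were estimated with GENCODE transcript lengths less 180 bases. Between 71.5% and 75.4% of the low values compared came within 0.1 of a whole fragment, against 20% for evenly spread values. Depth and the 180 bases were chosen to bring these same values nearest to whole fragments, so this share is no separate check. No pair of livers was identical (0 pairs), and Spearman correlations across genes were 0.980 to 0.991. The FPKM of all rows summed to 622696 to 681138 in control livers and 709993 to 782392 in lipophagy livers, so a gene with the same share of the total has a higher FPKM in the lipophagy group. Hepatocyte markers were present in every liver, with a summed level of 58272 to 64892 FPKM in control livers and 70285 to 93053 in lipophagy livers.

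Mup20 and Mup3 were the most abundant members. Together they made up 91.1% to 97.0% of the summed FPKM of the members in control livers and 85.3% to 96.0% in lipophagy livers. Of the sum of all 20 Mup rows and a further row, Gm2083, they held less, 79.1% to 91.4% in control livers and 72.7% to 90.0% in lipophagy livers. Mup20, which encodes darcin, the male pheromone protein that attracts females, was the most abundant member in 6 of 6 livers and ranked from 2nd to 7th by FPKM among all rows of the table. Mup3 was second among the members in all 6 livers and ranked from 9th to 15th. The per-length levels then fell in the order Mup7, Mup2, Mup21, Mup1, Mup5 and Mup4. Mup7 was above Mup2 in 6 of 6 livers. Mup2 was above Mup21 in 4 of 6 and Mup21 above Mup1 in 5 of 6, so the order of these neighbours changed from liver to liver.

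**Figure D1:**
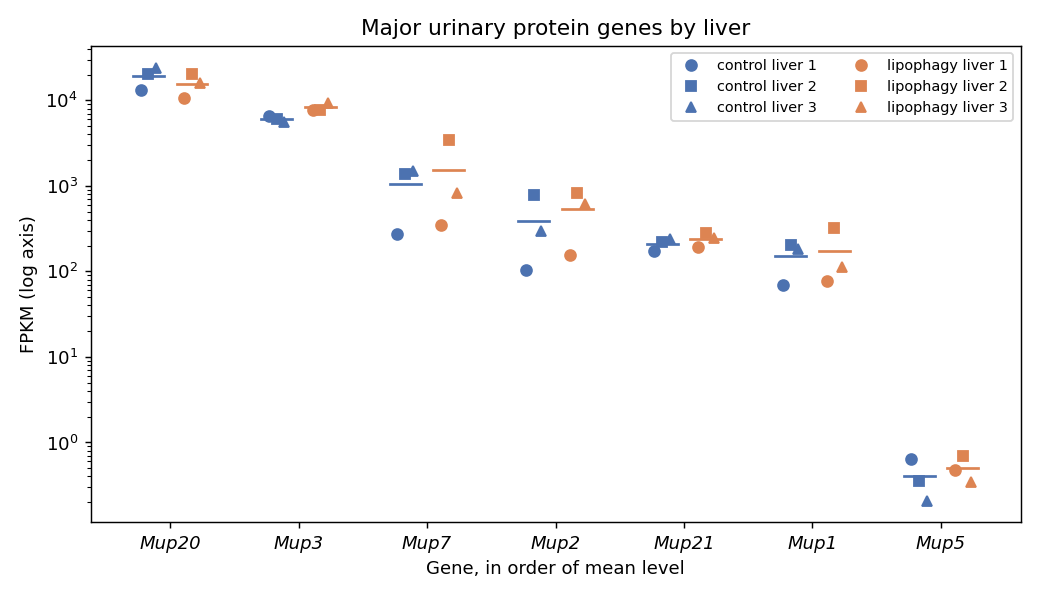
FPKM of 7 members in each liver on a log axis, with control livers in blue, lipophagy livers in orange, marker shape for the liver's number and a bar at the mean of 3 livers. For Mup3 the 3 lipophagy livers (7709 to 9369) lie above the 3 control livers (5602 to 6522), while Mup7, Mup2 and Mup1 spread widely within both groups. Mup4, listed at 0 in every liver, is not drawn.

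Mup3 was higher in every lipophagy liver than in every control liver. Its level was 6522, 5996 and 5602 FPKM in control livers 1, 2 and 3 and 7803, 7709 and 9369 FPKM in lipophagy livers 1, 2 and 3. The mean was 6040 ± 462 (SD, n = 3) against 8294 ± 932 (SD, n = 3), a ratio of the means of 1.37. On the log2(FPKM + 1) scale the difference was 0.45 (standard error 0.13, 95% interval 0.17 to 0.74). With an unadjusted p of 0.00662 and an adjusted p of 0.154 over all genes tested (limma), Mup3 did not pass the threshold of 0.05. The two-sided exact permutation test gave p = 0.1, the smallest that 3 livers against 3 allow. Scaled as TPM, that is as a share of the total, the groups overlapped. Mup3 was then at 10474, 9123 and 8224 in control livers and 9973, 10497 and 13196 in lipophagy livers, with a difference of 0.27 (95% interval -0.036 to 0.58, adjusted p = 0.253, limma), when the median of all genes was at -0.13. In tissue RNA a change in the number of hepatocytes and one in RNA per hepatocyte cannot be told apart. Hepatocyte markers moved the same way, 8 of 10 having a higher mean in the lipophagy group, and stellate cell markers the other way (9 of 10 lower, summed 160 to 175 FPKM against 129 to 160). Their part in the Mup3 difference was not tested.

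Mup20 ran in the opposite direction but its groups overlapped. It was at 13343, 20132 and 24195 FPKM in control livers and 10686, 20488 and 15924 FPKM in lipophagy livers. The mean was 19223 ± 5483 (SD, n = 3) and 15700 ± 4905 (SD, n = 3), and the log2 difference was -0.30 (standard error 0.28, 95% interval -0.95 to 0.36, adjusted p = 0.573, limma; two-sided exact permutation p = 0.6). The lowest values were those of control liver 1 and lipophagy liver 1. The difference was -0.54 or -0.11 when control liver 1 or 3 was left out, and -0.047 or -0.52 when lipophagy liver 1 or 2 was. Mup21, the member most like Mup3 in sequence, was at 173, 219 and 240 FPKM in control livers and 195, 284 and 248 FPKM in lipophagy livers. Its log2 difference was 0.20 (standard error 0.16, 95% interval -0.18 to 0.58, adjusted p = 0.514, limma), and lipophagy liver 1 lay among the control livers. The Mup21 difference was 0.065 or 0.30 when control liver 1 or 3 was left out, 0.35 or 0.079 when lipophagy liver 1 or 2 was, and 0.018 with TPM.

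Mup7, Mup2 and Mup1, the near-identical members, differed far more between livers of 1 group than between the groups. Mup7 was at 274, 1361 and 1507 FPKM in control livers and 347, 3420 and 828 FPKM in lipophagy livers. The highest liver was 12.5 times the lowest, and the log2 difference of 0.27 had a 95% interval from -1.76 to 2.30 (adjusted p = 0.887, limma). Control liver 1 and lipophagy liver 1 were the lowest of their groups, and lipophagy liver 2 stood above all others.

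Mup2 was at 103, 778 and 296 FPKM in control livers and 156, 826 and 608 FPKM in lipophagy livers. Its log2 difference was the largest of the members at 0.57, with a standard error of 0.79 and a 95% interval from -1.25 to 2.39 (adjusted p = 0.712, limma). Mup1, a secreted MUP also studied for its effect on glucose metabolism, was at 70.0, 204 and 185 FPKM in control livers and 76.4, 324 and 113 FPKM in lipophagy livers, with a log2 difference of 0.027 (95% interval -1.26 to 1.32, adjusted p = 0.984, limma). Control liver 1 was lowest and lipophagy liver 2 highest for Mup1, Mup2 and Mup7 alike. The sum of the 3 genes, which does not depend on how reads were divided among these 3, had the same pattern. It was 448, 2343 and 1988 FPKM in control livers and 580, 4571 and 1549 FPKM in lipophagy livers. The 95% intervals of all 3 reach beyond 1 log2 unit in either direction, so a group difference of that size is not excluded with 3 livers per group. Without control liver 1 the log2 differences were negative for Mup1 (-0.46), Mup2 (-0.16) and Mup7 (-0.53), and without lipophagy liver 2 they were negative for Mup1 (-0.57) and Mup7 (-0.62).

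**Figure D2:**
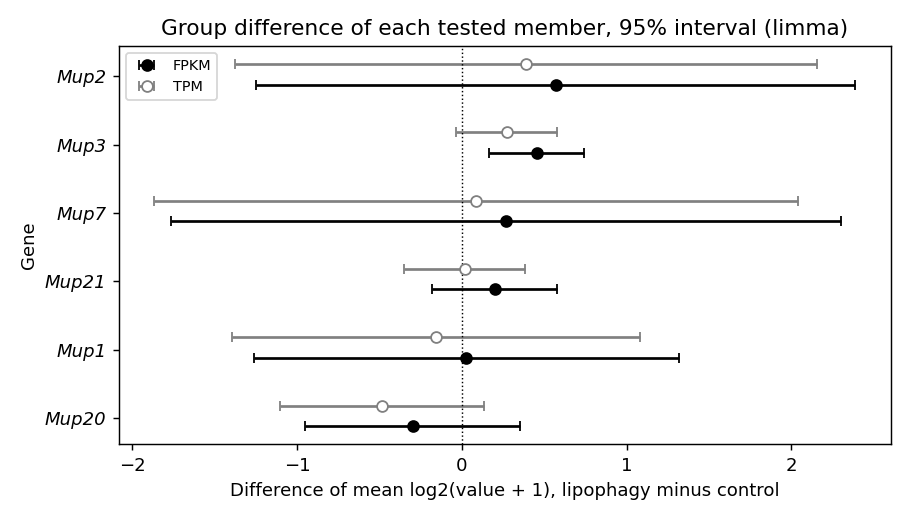
Difference of mean log2(value + 1) between lipophagy and control livers for the 6 members tested, with 95% intervals from limma, for FPKM (filled points) and TPM (open points). The interval lies above 0 only for Mup3 in FPKM (0.17 to 0.74), and those of Mup2, Mup7 and Mup1 span more than 2 log2 units.

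Mup5 and Mup4 are known mainly from secretory glands of the head rather than the liver. Mup5 was at 0.641, 0.358 and 0.209 FPKM in control livers and 0.482, 0.687 and 0.345 FPKM in lipophagy livers, an estimated 5.37 to 12.96 fragments per liver. Its mean of 0.454 FPKM was under the minimum of 0.5 FPKM for testing, its groups overlapped, and the two-sided exact permutation p was 0.5. Mup4 was listed at 0 in all 6 livers. At the lowest estimated depth 3 fragments of its transcript would give 0.174 FPKM, so its level was below what this depth shows.

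Of the 8 members, 6 were tested, 5 with a higher and 1 with a lower mean in the lipophagy group. Over all 11493 genes tested 54.5% had a higher and 45.5% a lower mean. With limma 0 of the 6 passed at an adjusted p below 0.05, against 0.0261% of all genes (3 genes, all lower). At an unadjusted p below 0.05, 1 of the 6 passed as higher (Mup3), against 11.5% of all genes, and 0 as lower, against 7.97%. Groups did not overlap for 1 of the 6, again Mup3, against 15.4% of all genes higher and 10.8% lower. The median difference of the 6 was 0.23, against 0.020 over all genes. It was 0.052 with TPM and 0.044 with TPM without the Mup rows, against -0.13 and -0.137 over all genes, since this scaling lowers the difference of nearly every gene alike, and 0.030 with quantile normalization, against 0.0074. Without control liver 1 only 2 of the 6 had a higher mean and the median was -0.31, and without lipophagy liver 2 it was 3 of the 6 and -0.22, so the direction rests on those livers. With TPM the balance of all genes with an unadjusted p below 0.05 turned from 1327 higher of 2243 to 236 higher of 2742, and with quantile normalization to 745 higher of 1644.

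**Figure D3:**
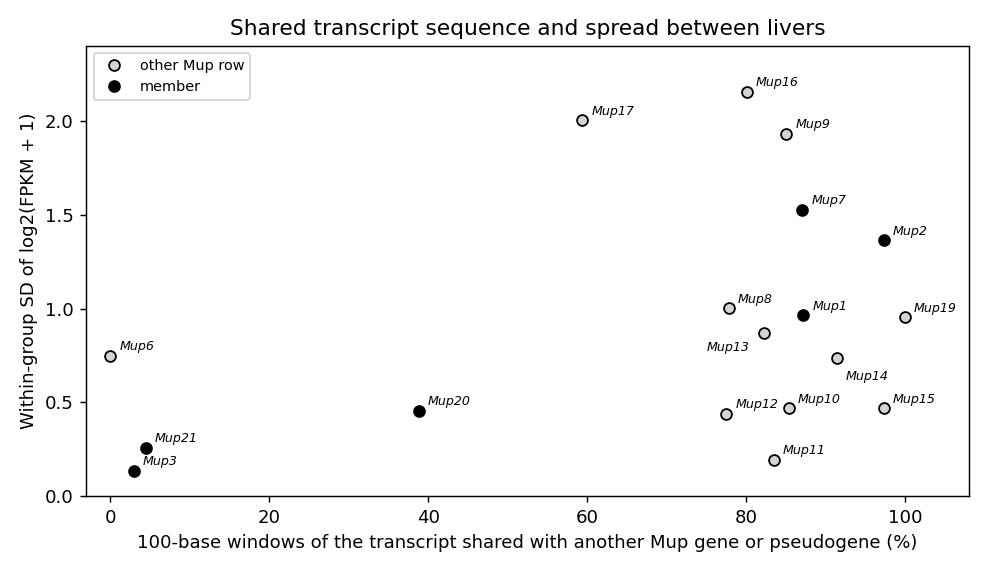
Within-group SD of log2(FPKM + 1) against the share of a transcript's 100-base windows found in another Mup gene or pseudogene, for the 6 members tested (black) and 12 other Mup rows (grey). Mup3 and Mup21, under 5% shared, have an SD of 0.14 and 0.26, and Mup1, Mup2 and Mup7, over 85% shared, have 0.97 to 1.53, while other rows with a high share range from 0.20 (Mup11) to 2.16 (Mup16) and Mup6, with 0 shared windows, has 0.75.

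The spread between livers within a group differed from member to member. Among 846 genes that averaged 100 FPKM or more, the within-group SD of log2(FPKM + 1) had a median of 0.13 and a 95th percentile of 0.33. Mup7, at 1.53, had the 3rd largest SD of these genes. Mup2 (1.37) was 4th, Mup1 (0.97) was 7th and Mup20 (0.46) was 24th. Mup21 (0.26) was 66th, while Mup3 (0.14) was 370th, in the middle of the range. Median deviations of the 6 members from their means were -0.68, 0.40 and 0.25 in control livers and -0.76, 0.78 and 0.036 in lipophagy livers.

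The summed level of the family did not separate the groups. The members added up to 20486, 28691 and 32025 FPKM in control livers and 19265, 33053 and 27090 FPKM in lipophagy livers. The mean was 27067 ± 5938 (SD, n = 3) and 26469 ± 6915 (SD, n = 3), and the difference of the mean log2 values was -0.042. As a share of the FPKM of all rows the members made up 3.29%, 4.36% and 4.70% in control livers and 2.46%, 4.50% and 3.82% in lipophagy livers. With the 12 other Mup rows the shares were 3.46% to 4.99% and 2.59% to 4.88%. Bile duct markers summed to 144, 248 and 255 FPKM in control livers and 97.5, 204 and 107 FPKM in lipophagy livers. Control liver 1 and lipophagy liver 1 were lowest in their groups, as for the MUP sum. Most of the marker sum was Spp1 alone, at 131, 227 and 236 FPKM in control livers and 87.4, 187 and 97.7 FPKM in lipophagy livers. The part of bile duct cells in the MUP sum was not tested.

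**Figure D4:**
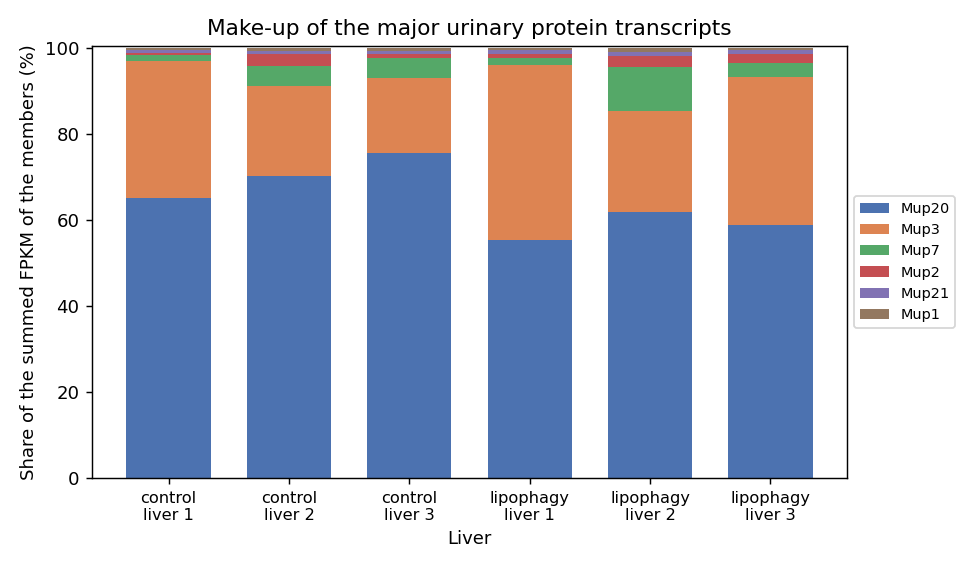
Share of each member in the summed FPKM of the members, as percent of the bar of each liver (Mup5, under 0.01%, and Mup4 cannot be seen). The Mup20 part is 65.1% to 75.6% in control livers and 55.5% to 62.0% in lipophagy livers.

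Within the sum, the 3 lipophagy livers had a smaller share of Mup20 than any control liver. Mup20 was 65.1%, 70.2% and 75.6% of the members' FPKM in control livers and 55.5%, 62.0% and 58.8% in lipophagy livers. Its mean share was 70.3% ± 5.21 (SD, n = 3) against 58.7% ± 3.26 (SD, n = 3). The share of Mup21 was higher in each lipophagy liver, at 0.748% to 0.843% against 0.858% to 1.01%. Mup3 was 17.5% to 31.8% in control livers and 23.3% to 40.5% in lipophagy livers, which overlap. Mup7 was 1.34% to 4.74% and 1.80% to 10.3%. These shares are not changed by 1 scaling factor per liver, as in TPM, but they are tied to each other and show only unequal levels within a liver, not which member moved. They are given without a test. With all Mup rows and the row Gm2083 (an older name of Mup13, described next) in the sum, Mup20 was 60.9% to 69.4% in control livers and 52.0% to 52.8% in lipophagy livers, and the shares of Mup21 overlapped (0.662% to 0.794% and 0.731% to 0.951%).

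The 12 other rows together held 1051 to 2501 FPKM in control livers and 1005 to 2821 FPKM in lipophagy livers. Of them 8 had a higher mean in the lipophagy group and 4 a lower one, and 0 passed the adjusted threshold (limma). Mup14, the most abundant, was at 666, 1697 and 1457 FPKM in control livers and 629, 1586 and 1507 FPKM in lipophagy livers. Mup19 ranged from 149 to 690 FPKM and Mup11 from 188 to 257 FPKM. Mup12, Mup8 and Mup13 had means over all livers of 18.6, 21.8 and 6.64 FPKM, Mup6 of 2.79 and Mup10 of 0.890 FPKM. Mup9 was at 117 and 122 FPKM in control liver 2 and lipophagy liver 2 and at 8.16 to 17.02 FPKM in the others.

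Some of these values cannot be read as whole fragments of 1 gene. Mup16 was at 49.0 FPKM in lipophagy liver 2 and at 0.283 to 0.290 FPKM in the other livers. Mup17 was at 0.00779 FPKM in control liver 1 and 0.00772 FPKM in lipophagy liver 1, where the latter is an estimated 0.139 of a fragment, and at 6.87 to 19.8 FPKM elsewhere. Groups did not overlap for 1 of the 12 rows, against 15.4% of all genes higher. This was Mup15, at 0.776, 0.672 and 0 FPKM in control livers and 1.36, 1.28 and 3.13 FPKM in lipophagy livers (log2 difference 0.97, unadjusted p = 0.00825, adjusted p = 0.160, limma). An unadjusted p below 0.05 was reached as higher by 11.5% of all genes, and 97.3% of the windows of Mup15 are shared with another Mup gene.

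Genes whose pattern over the 6 livers was most like that of Mup2, the member with the largest difference, were led by Gm2083. The measure is the root mean square difference between 2 genes' deviations from their mean log2(FPKM + 1), which for Mup2 itself amounts to 1.15. Gm2083 differed by 0.35, and RefSeq lists that symbol as an older name of Mup13, so it is counted here as a further MUP row. The table also has a row named Mup13, and Gm2083 was 82.4 to 317 times as high in the same liver, so it is uncertain which of the rows gives the level of Mup13. Gm2083 was at 207, 1843 and 817 FPKM in control livers and 273, 2916 and 1136 FPKM in lipophagy livers, more than Mup2 in every liver. The next were Derl3 (0.48), which acts in degradation at the endoplasmic reticulum, Ces2b (0.60), a carboxylesterase, Bcl6 (0.65), a transcriptional repressor, and Fmr1nb (0.65). For the summed members, with a deviation of 0.30, the nearest of 11471 genes were Atat1 (0.051), a tubulin acetyltransferase, S1pr5 (0.083), Lrg1 (0.094), a secreted glycoprotein, Hspa1a (0.096) and Fabp5 (0.097). Against Mup3, a target chosen after its values were seen and with a deviation of 0.25, the growth hormone receptor Ghr was nearest (0.054). Close behind were Ulk1 (0.068), Aox3 (0.069), Pdcl (0.069) and Pank1 (0.077), with log2 group differences from 0.33 to 0.44. These are descriptions over 6 livers in 2 groups, and a group difference of like size is enough to bring genes close to Mup3.

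The growth hormone axis and known regulators of MUP transcription formed a list of 25 genes. Of 24 tested, 13 had a higher and 11 a lower mean, with a median of 0.016 against 0.020 over all genes. At an unadjusted p below 0.05 (limma), 1 was higher and 6 were lower, against 11.5% and 7.97% of all genes. Groups did not overlap for 2 as higher and 6 as lower, against 15.4% and 10.8% of all genes. At an adjusted p below 0.05 2 were called (limma), against 0.0261% of all genes, and both fell. Cish, an inhibitor of cytokine signalling that STAT5 induces, fell from 13.02 ± 2.81 to 1.04 ± 0.319 FPKM (SD, n = 3 each), a log2 difference of -2.77 (adjusted p = 0.00172, limma). Foxa1, a pioneer factor of hepatocyte genes, fell from 6.19, 5.40 and 6.08 FPKM in control livers to 2.85, 2.97 and 3.17 FPKM in lipophagy livers, a log2 difference of -0.78 (adjusted p = 0.046, limma). With each liver left out in turn Cish passed in 6 of 6 fits and Foxa1 in 1, the one that dropped lipophagy liver 3, with adjusted p for Foxa1 from 0.0416 to 0.207 (limma). Socs2, a feedback inhibitor of growth hormone signalling, was at -1.32 (adjusted p = 0.124, limma), with all lipophagy livers below all control livers. Ghr itself was at 162, 153 and 137 FPKM in control livers and 198, 195 and 215 FPKM in lipophagy livers (log2 difference 0.43, adjusted p = 0.131, limma). Stat5b, the transducer of growth hormone signals, was at 0.016, the circulating hormone Igf1 at 0.095 and its carrier subunit Igfals at 0.19, with adjusted p of 0.937, 0.613 and 0.295 (limma).

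Genes known to be higher in male than in female mouse liver, as MUP genes are, had a higher mean in the lipophagy group in 20 of 26 cases tested and a lower one in 6, against 54.5% higher over all genes. Their median was 0.25. It was 0.081 with TPM and 0.074 with TPM computed without the Mup rows, where the median of all genes was -0.13 and -0.137, and 0.091 with quantile normalization, where that of all genes was 0.0074. Without control liver 1 it was 0.16 and without lipophagy liver 2 0.155, with 17 of 26 higher in both cases. Among them 0 passed the adjusted threshold (limma), and 9 passed as higher at an unadjusted p below 0.05, against 11.5% of all genes. Bcl6 had the largest positive difference, with 2.05, 7.13 and 5.24 FPKM in control livers and 6.42, 16.6 and 13.9 FPKM in lipophagy livers (log2 difference 1.22, adjusted p = 0.192, limma), and C6, a complement component, the most negative one (-0.26, adjusted p = 0.525, limma). Hepatocyte markers had a median of 0.26 (8 of 10 higher) and stellate cell markers one of -0.23 (9 of 10 lower). The part of these cells in the male-biased median was not tested. Of 20 female-biased genes tested, 12 had a higher and 8 a lower mean, with a median of 0.038. Among these Cyp4a10, a fatty acid hydroxylase that PPAR-alpha induces, was at 1.15 (adjusted p = 0.112, limma) and the receptor Ntrk2 at -0.57 (adjusted p = 0.124, limma).

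Other lipocalins and secreted plasma proteins place the MUP genes among products of the same kind. Of 9 other lipocalins tested 5 had a higher and 4 a lower mean, with a median of 0.077. Apom, a carrier of sphingosine 1-phosphate in lipoproteins, was highest in difference at 0.43 (adjusted p = 0.242, limma) and Lcn2, an iron-siderophore binder of inflammation, lowest at -0.79 (adjusted p = 0.139, limma). Of 33 plasma proteins of hepatocytes, 25 had a higher and 8 a lower mean, with a median of 0.19 against 0.020 over all genes. With TPM it was 0.0037 against -0.13, and with quantile normalization -0.023 against 0.0074. Alb, serum albumin, had the largest positive difference (0.47, adjusted p = 0.204, limma) and Apoa4, an apolipoprotein of lipid transport, the most negative one (-1.23, adjusted p = 0.103, limma).

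**Figure D5:**
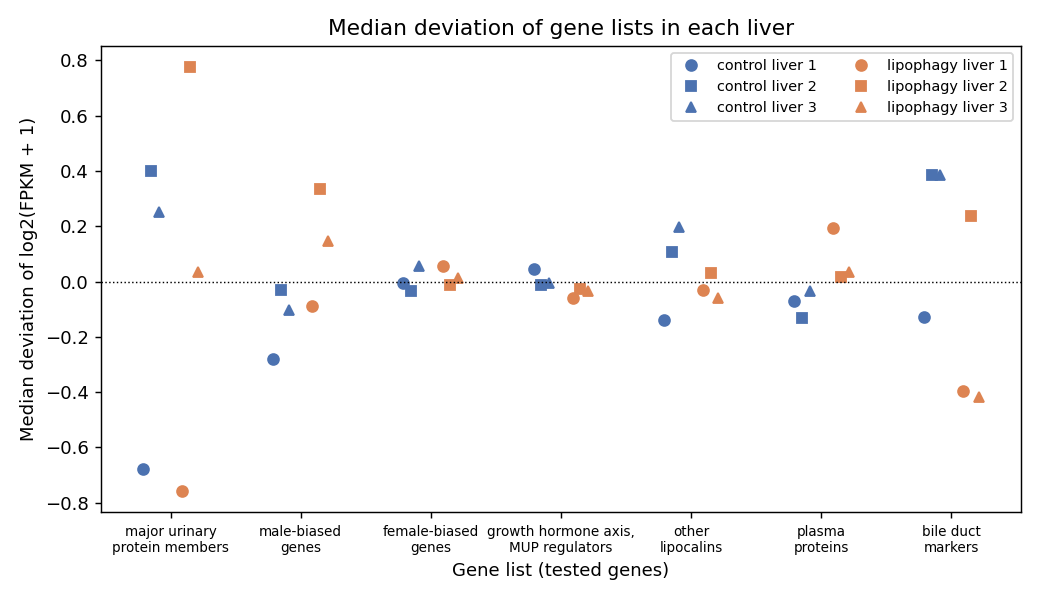
Median over the tested genes of a list of each gene's deviation from its mean log2(FPKM + 1), for 3 control livers (blue) and 3 lipophagy livers (orange). The MUP members run from -0.76 in lipophagy liver 1 to 0.78 in lipophagy liver 2, whereas the plasma proteins stay within -0.13 and 0.19 and the growth hormone list within -0.061 and 0.045.

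Median deviations of the male-biased genes were -0.28, -0.032 and -0.10 in control livers and -0.089, 0.33 and 0.15 in lipophagy livers, with liver 1 lowest in each group as for the MUP members. Those of the bile duct markers were -0.13, 0.39 and 0.38 in control livers and -0.40, 0.24 and -0.42 in lipophagy livers, so lipophagy liver 3 was low for them and not for the MUP members. Erythroid markers summed to 483 FPKM in lipophagy liver 2, the liver highest in Mup1, Mup2 and Mup7, and to 109 to 169 FPKM in the others. Macrophage markers (4 of 9 higher) summed to 223 to 240 FPKM in control livers and 211 to 222 FPKM in lipophagy livers, which do not overlap. Endothelial markers (8 of 10 higher) summed to 41.0 to 52.7 FPKM and 45.1 to 70.9 FPKM in the same order. Neutrophil markers (0 of 3 higher) summed to 19.2 to 33.4 FPKM and 16.9 to 20.03 FPKM, and lymphocyte markers (1 of 3 higher) to 5.32 to 6.74 FPKM and 4.22 to 5.64 FPKM. Among the listed markers, 0 were at 0 in all livers. The part of these cells in the MUP values was not tested.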

How the data were processed

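Liver RNA of 3 control and 3 lipophagy mice was measured by poly(A), stranded, paired-end RNA sequencing. The authors deposited FPKM values per gene symbol and liver, already scaled to transcript length and mapped fragments. The submitters' processing notes name TopHat2 2.0.13, Bowtie2 2.2.3, SAMtools 0.1.19, Cufflinks 2.2.1 and build mm10. The annotation and the treatment of reads with several matches are not given in the sources used here. The labels name a HiSeq and the methods a NovaSeq instrument.

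Groups followed the sample titles and the treatment label. Rows with a mean of 0.5 FPKM or more were tested as log2(FPKM + 1), which understates changes of low genes, with limma 3.58.1 in R 4.3.3 (intensity trend, no covariate, two-sided, Benjamini-Hochberg over 11493 genes, threshold 0.05). Single values were compared by two-sided exact permutation, whose smallest p is 0.1. Sums, shares and lists got no test. Depth was estimated from the steps of low FPKM values of genes with 1 transcript, and such estimates cover counting error only. Sequences came from GENCODE vM21 and RefSeq GRCm38.p6 and were aligned with MAFFT 7.526. Other tools were Python 3.11.15, numpy 2.4.6, pandas 2.3.3, scipy 1.17.1, Biopython 1.88 and matplotlib 3.10.9. The fit was tested on simulated data with 200 changed genes.

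Named are all members and Mup rows, and in each list except the cell markers the largest rise, largest fall and called genes. Key genes of the growth hormone axis are named too. Cell markers are given by list, with Spp1 named after its values were seen. The 5 genes nearest in pattern are given for the summed members and the member with the largest difference. Those nearest to Mup3 were added after seeing the data. The members and lists were chosen with earlier results of these data known. Alternatives were other pseudocounts, filters, scalings and variance models, a replicate block, each liver left out, and, added after seeing the data, sums over all Mup rows with and without Gm2083, overlap of groups in TPM, and list counts without each liver. Correlations of deviations were 0.25, 0.234 and -0.0565 between same-numbered livers, and 0.251 between control liver 3 and lipophagy liver 2. They cannot show whether the numbers pair livers.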

Additional observations from a re-analysis of the deposited data

How the results depend on the processing

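The count of MUP members passing the adjusted threshold was 0 in the limma fit and in all 18 alternatives. Mup3, Mup20 and Mup21 kept the sign of their difference in all 18, with Mup3 between 0.26 and 0.51 and its adjusted p between 0.0894 and 0.362 (limma), Mup20 between -0.54 and -0.047, and Mup21 between 0.010 and 0.35. Mup1 turned to -0.13 with quantile normalization, -0.155 with TPM and -0.163 with TPM without the Mup rows. TPM shifts nearly all genes alike, the median of all genes going from 0.020 to -0.13 with TPM and to -0.137 without the Mup rows, so a sign under TPM is to be read against those values. With each liver left out Mup1 ran from -0.57 to 0.46, Mup2 from -0.16 to 1.30 and Mup7 from -0.62 to 1.03. All 3 were negative without control liver 1, and Mup1 and Mup7 also without lipophagy liver 2. The cause of the changes with a liver left out was not tested. The number of members whose groups did not overlap, 1 in the main analysis, was 0 with quantile normalization, 0 with TPM and 0 with TPM without the Mup rows, and from 1 to 2 with each liver left out, the 2 being without lipophagy liver 1. The difference of the summed members ran from -0.23 to 0.17 with each liver left out and was -0.23 with TPM, and -0.032 over all Mup rows. Genes called over the whole table, 3 in the main fit, were 1 with no filter on low values, 104 with TPM, 124 with TPM without the Mup rows, 39 with quality weights, and 1 to 11 with each liver left out, the changes past 1.5 times being 7 and 1 for control livers 2 and 3 and 5 and 11 for lipophagy livers 2 and 3. With the replicate number as a block 43 genes were called and 0 members, and this fit changed no member's call. The labels give same-numbered livers only a number in common, and whether they share more was not tested. Medians of the lists moved with scaling, those under TPM together with the median of all genes just given: the male-biased genes to 0.074 with TPM without the Mup rows, the female-biased genes to -0.117 with TPM and -0.124 without the Mup rows, the growth hormone list to -0.080 with quantile normalization, -0.158 with TPM and -0.166 without the Mup rows, other lipocalins to -0.124, -0.101 and -0.109 in the same settings, and plasma proteins to -0.023, 0.0037 and -0.0042. With each liver left out the medians ran from -0.31 to 0.48 for the members, 0.155 to 0.33 for male-biased genes, 0.017 to 0.14 for female-biased genes, -0.027 to 0.0096 for the growth hormone list, -0.12 to 0.17 for other lipocalins and 0.10 to 0.20 for plasma proteins. Depth limits Mup4 and Mup5, and the spread between 3 livers limits Mup1, Mup2, Mup7 and Mup20.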
